A study of Homo sapiens with 9 samples.

Results

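The genes described here are 10 genes of cartilage, tendon and the joint surface: PRG4, CILP, ACAN, HAPLN1, MATN3, COMP, MIA, EPYC, SCX and TNMD. They were chosen by name from 25593 genes and loci in each expression table; 9 were found by symbol, and SCX was found through its RefSeq synonyms SCXA and SCXB. Messenger RNA levels come from sequencing 9 cultures, 3 in each of 3 media, of cells resembling neural crest that were derived from H9, an established line of human embryonic stem cells. The F_FSB cultures were kept in FGF2 plus SB431542, an inhibitor of the TGF-beta and activin type I receptors, for 4 passages and then in FGF2 without the inhibitor for 3 more. The FSB cultures were kept in FGF2 and SB431542 throughout. The F cultures received FGF2 without SB431542 during expansion. FGF2 was given at 5 to 10 ng/ml and SB431542, where given, at 3 to 5 µM. Every culture, including those of group F, had been exposed to 10 µM SB431542 for 6 days while the stem cells were differentiated, was then sorted and grown on fibronectin in 5% oxygen, and was harvested at passage 6 to 7. The growth protocol describes the sorted cells as CD271 high and CD73 negative, whereas the cell type label reads CD271 and CD73 positive, and all cultures come from a single stem cell line.

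Cartilage owes its stiffness to aggrecan, a large proteoglycan that is held on hyaluronan by link protein, together with a collagen network bridged by matrilins and COMP. The gliding surface of joints is lubricated by proteoglycan 4, made by superficial chondrocytes and synovial lining cells, and the tendons that attach to the skeleton are formed by progenitors that carry the transcription factor scleraxis. In the face, the neural crest gives rise to cartilage, bone and tendon. TGF-beta signals through type I receptors that phosphorylate SMAD2 and SMAD3, and it is a known inducer of scleraxis and of several cartilage matrix genes.

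The joint lubricant gene PRG4, the tendon transcription factor gene SCX and the cartilage matrilin gene MATN3 were lower in FSB than in F cultures and higher in F_FSB than in FSB cultures, although the PRG4 call in F_FSB relative to FSB was lost when any FSB replicate, among others, was left out. Over all genes tested, 41.9% were called in FSB relative to F and 41.8% in F_FSB relative to FSB. All 3 overlapped between F_FSB and F cultures, where 13% of genes tested did not overlap. No member passed the test between these 2 groups, where 1 of all genes tested passed. HAPLN1 and TNMD varied widely among the F and among the F_FSB cultures, and passed the test in no comparison of all 9 libraries. ACAN, COMP and EPYC stayed under 1 FPKM in every culture, and MIA exceeded it in 1 culture. Levels are in FPKM, sequenced fragments scaled to transcript length and library size, as deposited, and changes are differences of log2(FPKM + 1), which understate the change of genes at low levels. Changes were tested with limma over all 9 libraries, with Benjamini-Hochberg adjustment over the 13216 genes that reached 1 FPKM in at least 3 libraries, at a threshold of 0.05. PRG4, SCX and CILP reached 1 FPKM in F_FSB and F cultures only, so their place among the tested genes depended on being higher there. The same FSB cultures enter the comparisons with F and with F_FSB, so opposite signs there are not independent. In bulk RNA, fewer cells of a type and less RNA per cell cannot be told apart, and the p-values measure the spread between these cultures of a single cell line.

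The FPKM values of a library summed to between 361026 and 506146, the highest being F_FSB replicate 2, in which MIR4461 alone was listed at 111389 FPKM. The tables give no read counts, so the precision of a value is read here from the interval that Cufflinks attached to it. F replicate 1 stood closer to F_FSB replicate 1 (median absolute log2 difference 0.103 over 4630 genes) than to F replicate 2 (0.149) or F replicate 3 (0.138), and calls among the 10 genes that change when it is left out are given with and without it. FSB replicates 1 and 2 were the closest pair of libraries, at 0.0938. Over all genes tested, the median log2 change was 0.14 in FSB relative to F, -0.13 in F_FSB relative to FSB and -0.0021 in F_FSB relative to F. With that shift in place, FSB minus F gave 3763 higher and 1773 lower genes, against 2395 and 2489 after median ratio scaling, and F_FSB minus FSB gave 1805 higher and 3722 lower genes, against 2532 and 2497. NGFR, the gene of CD271, was at 1.501, 5.92 and 7.26 FPKM in F_FSB, at 134, 123 and 104 FPKM in FSB, and at 0.725, 41.3 and 17.96 FPKM in F. NT5E, the gene of CD73, was at 68.1, 46.2 and 74.8 FPKM in F_FSB, at 24.3, 26.5 and 9.26 FPKM in FSB, and at 63.2, 99.1 and 56.4 FPKM in F. The 6 listed neural crest markers, NGFR included, summed to 30.0 to 49.8 FPKM in F_FSB, 235 to 246 FPKM in FSB and 35.1 to 70.4 FPKM in F. Most of the FSB sum came from NGFR, TFAP2A and ETS1, which averaged 120, 60.7 and 56.1 FPKM there. SOX10 and PAX3 averaged 0.612 and 1.40 FPKM in FSB, and FOXD3 stayed under 1 FPKM in every library.

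PRG4 encodes proteoglycan 4, or lubricin, the boundary lubricant of the joint surface, and lies on chromosome 1 at 186265405 to 186283688 on the plus strand (GRCh37). Its level was 0.764, 59.4 and 15.3 FPKM in F_FSB replicates 1, 2 and 3, 0.0199, 0.0104 and 0.0423 FPKM in FSB, and 32.4, 163 and 161 FPKM in F. All 3 FSB cultures were close to 0, with Cufflinks intervals that reached 0, and all were below every F_FSB and F culture. F_FSB replicate 1 was the lowest culture outside FSB, and F_FSB replicate 2 was higher than F replicate 1, so that F_FSB and F overlapped. Group means were 25.2 ± 30.6 FPKM in F_FSB, 0.0242 ± 0.0164 FPKM in FSB and 119 ± 74.8 FPKM in F (SD, n = 3 each). PRG4 fell by 6.55 on the log2 scale in FSB relative to F (SE 1.17, adjusted p = 0.00353, limma). It was 3.55 higher in F_FSB than in FSB (SE 1.17, 95% interval 0.86 to 6.25, adjusted p = 0.0407, limma). That call was lost in limma fits without F_FSB replicate 2, where the change was 2.39 (adjusted p = 0.0961), or F_FSB replicate 3 (adjusted p = 0.0998), and also without F replicate 2 or 3 (0.0519 and 0.0527) or FSB replicate 1, 2 or 3 (0.0979, 0.0987 and 0.0899), while the direction held in all of these. Between F_FSB and F the log2 change was -3.00 (95% interval -5.70 to -0.30), with an adjusted p of 0.542.

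The PRG4 row overlaps that of TPR, a nuclear pore gene on the opposite strand, over 2905 bases. The libraries were made with a strand-specific kit, but the sources used here do not say whether strand was used in quantification. TPR was at 22.1 to 28.4 FPKM in F_FSB, 34.0 to 37.3 FPKM in FSB and 26.3 to 30.8 FPKM in F. The 3 highest TPR values were those of the FSB cultures, and the part of TPR reads in the PRG4 values was not tested.

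CILP encodes cartilage intermediate layer protein, a matrix protein of articular cartilage, and lies on chromosome 15 at 65488337 to 65503840 on the minus strand (GRCh37). It was listed at 0.170, 1.05 and 0.278 FPKM in F_FSB, 0.0103, 0.0108 and 0.0109 FPKM in FSB, and 0.102, 2.91 and 2.49 FPKM in F. The FSB cultures had the 3 lowest values, with intervals that reached 0, and overlapped neither other group. F replicate 1 was far below the other F cultures and below every F_FSB culture. The log2 change of FSB minus F was -1.29 (SE 0.46, adjusted p = 0.0520, limma), just outside the threshold. Without F replicate 1 it was -1.87 with an adjusted p of 0.00203. F_FSB minus FSB gave 0.52 (SE 0.46, adjusted p = 0.387), and F_FSB minus F gave -0.76 (adjusted p = 0.616), or -1.34 without F replicate 1 (adjusted p = 0.0719).

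**Figure D1:**
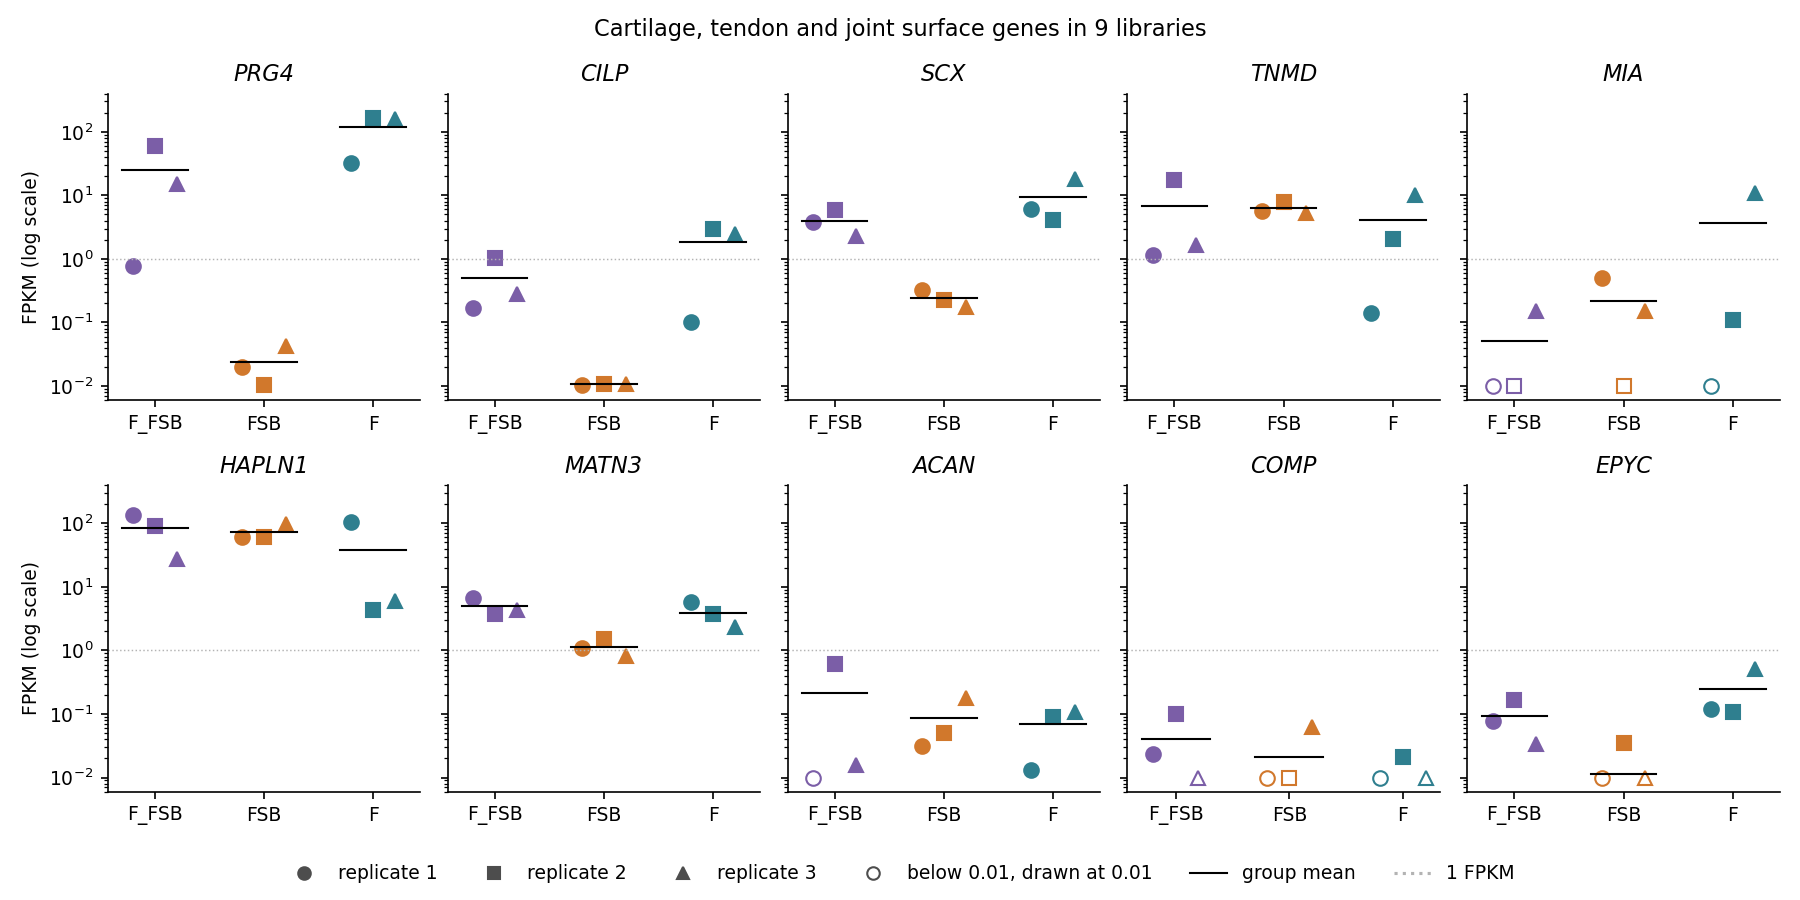
FPKM of each of the 10 genes in the 9 cultures, on a log axis, with F_FSB, FSB and F side by side a symbol for each culture and a bar at each group mean; open symbols stand for values below the foot of the scale, drawn at it, and the dotted line marks 1 FPKM. PRG4, CILP and SCX are lowest in all 3 FSB cultures, and HAPLN1 separates F replicate 1, at 103 FPKM, from the other 2 F cultures, at 4.36 and 5.97 FPKM.

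Of the aggrecan aggregate, the link was present and the core was scarcely detected. ACAN encodes aggrecan itself and lies on chromosome 15 at 89346674 to 89418585 on the plus strand (GRCh37). It was listed at 0.00623, 0.609 and 0.0158 FPKM in F_FSB, 0.0316, 0.0495 and 0.179 FPKM in FSB, and 0.0130, 0.0886 and 0.106 FPKM in F. Its highest culture, F_FSB replicate 2, stayed under 1 FPKM, and ACAN was not tested.

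HAPLN1 encodes the link protein that fastens aggrecan and versican to hyaluronan, and lies on chromosome 5 at 82934017 to 83016896 on the minus strand (GRCh37). Its level was 136, 90.6 and 27.8 FPKM in F_FSB, 61.1, 60.2 and 98.7 FPKM in FSB, and 103, 4.36 and 5.97 FPKM in F. F replicates 2 and 3 were the lowest of the 9 cultures, whereas F replicate 1 was as high as the upper FSB and F_FSB cultures, so that the 3 groups overlapped. In F_FSB replicate 1, FSB replicate 3 and F replicate 1, the listed value lay just above the upper end of its own Cufflinks interval. Group means were 84.7 ± 54.2 FPKM in F_FSB, 73.3 ± 22.0 FPKM in FSB and 37.8 ± 56.5 FPKM in F (SD, n = 3 each). HAPLN1 passed in no comparison: its log2 change was 2.20 in FSB relative to F (95% interval -0.28 to 4.69, adjusted p = 0.135, limma), -0.02 in F_FSB relative to FSB (adjusted p = 0.988) and 2.18 in F_FSB relative to F (adjusted p = 0.573). Without F replicate 1, FSB minus F was 3.56 and passed (adjusted p = 0.00487), and F_FSB minus F was 3.54 (adjusted p = 0.0634). Versican, the aggregate-forming paralog of aggrecan encoded by VCAN, averaged 125 ± 71.3 FPKM in F_FSB, 89.8 ± 27.1 FPKM in FSB and 149 ± 85.6 FPKM in F.

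Of MATN3, COMP, EPYC and MIA, MATN3 alone reached the filter for testing. MATN3 encodes matrilin-3, a cartilage adaptor protein, and lies on chromosome 2 at 20191813 to 20212455 on the minus strand (GRCh37). Its level was 6.79, 3.70 and 4.36 FPKM in F_FSB, 1.11, 1.52 and 0.804 FPKM in FSB, and 5.68, 3.72 and 2.33 FPKM in F. Every FSB culture was below every F_FSB and F culture, and F_FSB and F overlapped. MATN3 fell by 1.15 on the log2 scale in FSB relative to F (SE 0.28, adjusted p = 0.0132, limma) and was 1.45 higher in F_FSB than in FSB (SE 0.28, adjusted p = 0.00470). F_FSB minus F gave 0.30 (95% interval -0.35 to 0.95, adjusted p = 0.735). Both calls held under every alternative that kept the gene in the test.

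COMP, which encodes the thrombospondin-family protein that links matrilins and collagens, was listed at 0 in 5 of 9 libraries and at most at 0.0997 FPKM, in F_FSB replicate 2. It lies on chromosome 19 at 18893583 to 18902114 on the minus strand. EPYC, which encodes epiphycan, a small leucine-rich proteoglycan of growth cartilage, lies on chromosome 12 at 91357456 to 91398803 on the minus strand. Its values were 0.0341 to 0.168 FPKM in F_FSB, 0 to 0.0344 FPKM in FSB, and 0.107 to 0.516 FPKM in F, and 2 FSB libraries were listed at 0. MIA, which encodes a secreted protein of cartilage and melanoma, lies on chromosome 19 at 41281082 to 41283398 on the plus strand. It was at 10.9 FPKM in F replicate 3 and at no more than 0.502 FPKM in the other 8 libraries. That value lay above its own Cufflinks interval of 5.40 to 9.72 FPKM, and the row shares 1957 bases with the read-through gene MIA-RAB4B, listed at 2.24 FPKM in the same library. With no filter on low values, none of ACAN, COMP, EPYC and MIA passed in any comparison, and the lowest adjusted p was 0.111, for EPYC in FSB minus F.

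SCX encodes scleraxis, the transcription factor of tendon progenitors, and its SCXA and SCXB rows held identical values in every library, so they were counted as 1 gene. The copies are 1529 bases long each and differ at 1 base, and the sources used here do not say how reads were shared between them. The listed level was 3.81, 5.86 and 2.26 FPKM in F_FSB, 0.328, 0.228 and 0.174 FPKM in FSB, and 6.21, 4.16 and 18.04 FPKM in F. The FSB cultures were the 3 lowest, F replicate 3 was the highest, and F_FSB and F overlapped. The value in F replicate 3 lay above its own interval of 10.5 to 15.2 FPKM, and the intervals of FSB replicates 2 and 3 reached 0. SCX fell by 2.84 on the log2 scale in FSB relative to F (SE 0.46, adjusted p = 0.00230, limma) and was 1.94 higher in F_FSB than in FSB (SE 0.46, adjusted p = 0.0110). F_FSB minus F gave -0.91 (95% interval -1.96 to 0.15, adjusted p = 0.579). The SCXA row lies within BOP1, a ribosome biogenesis gene on the opposite strand, which was at 10.4 to 12.3 FPKM in F_FSB, 11.2 to 14.6 FPKM in FSB and 12.2 to 26.3 FPKM in F. BOP1 too was highest in F replicate 3, and its part in the SCX value was not tested.

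TNMD encodes tenomodulin, a membrane glycoprotein of mature tendon cells, and lies on chromosome X at 99839790 to 99854882 on the plus strand (GRCh37). Its level was 1.13, 17.3 and 1.63 FPKM in F_FSB, 5.77, 7.74 and 5.22 FPKM in FSB, and 0.142, 2.09 and 9.99 FPKM in F. F_FSB replicate 2 and F replicate 3 were the highest cultures, F replicate 1 the lowest, and the FSB cultures lay between them within a narrow range. TNMD did not pass in any comparison, with log2 changes of 1.08 in FSB relative to F (adjusted p = 0.400, limma), -0.61 in F_FSB relative to FSB (adjusted p = 0.634) and 0.47 in F_FSB relative to F (adjusted p = 0.883). The interval of the FSB minus F change ran from -1.14 to 3.30, and without F replicate 1 the change was 0.30 (adjusted p = 0.827, limma).

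**Figure D2:**
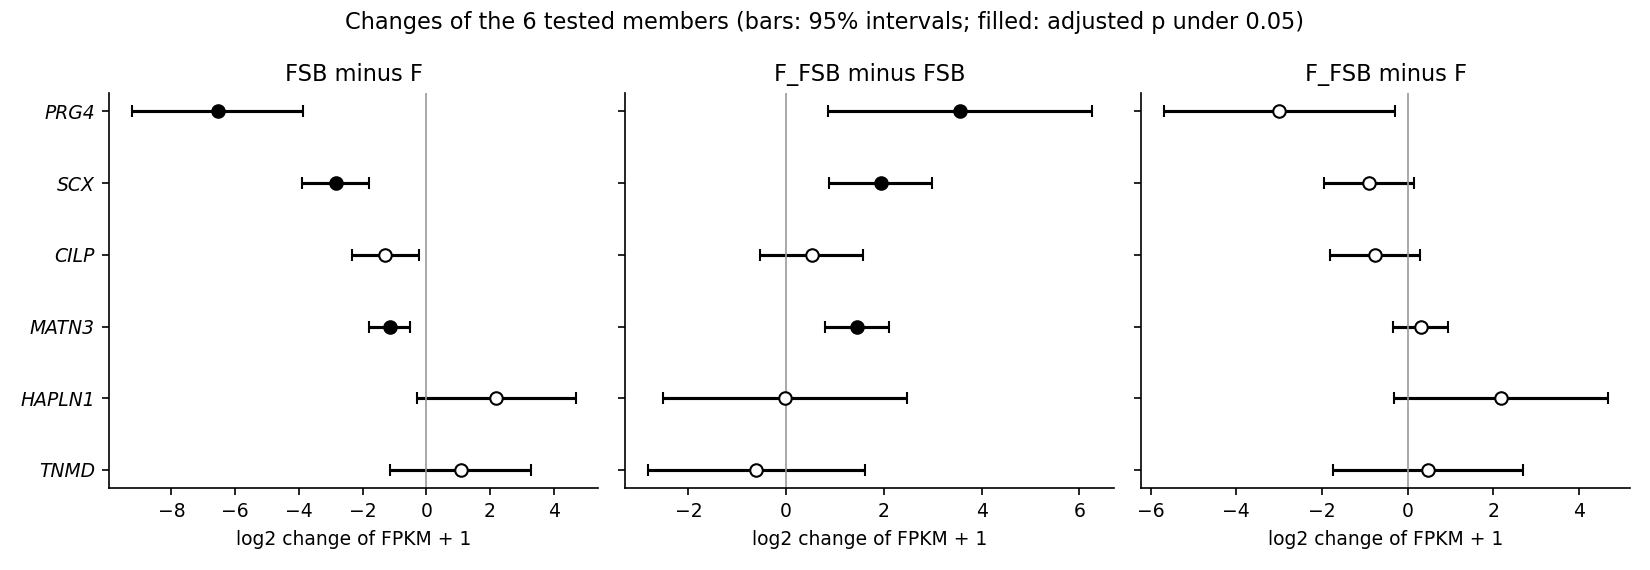
Log2 changes of FPKM + 1 for the 6 tested genes in each comparison, with 95% intervals from limma; filled points have an adjusted p under 0.05. PRG4, SCX and MATN3 are filled on the negative side for FSB minus F (-6.55, -2.84 and -1.15) and on the positive side for F_FSB minus FSB (3.55, 1.94 and 1.45), and no point is filled for F_FSB minus F.

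The test covered 6 of the 10 genes. In FSB minus F, 3 of the 10 were called, all lower, where 41.9% of all genes tested were called, 28.5% higher and 13.4% lower. PRG4, CILP, SCX and MATN3 had groups that did not overlap in that comparison, as did 57.9% of genes tested. In F_FSB minus FSB, the same 3 genes were called, all higher, where 41.8% of genes tested were called, 13.7% higher and 28.2% lower, and 55.8% had groups that did not overlap. The FSB libraries enter both comparisons, so the opposite signs are not independent of each other. CILP, PRG4 and SCX reached the filter through F_FSB and F libraries only, so their place among the tested genes already depended on being higher there. In F_FSB minus F, 0 of the 10 were called, where 0.00757% of genes tested passed, which is 1 gene (GAS1, named because it was the single call). Without adjustment, limma put 9.04% of genes under 0.05 in that comparison, PRG4 among them and no other member. Groups that did not overlap were seen in 0 of the 6 there, where 13% of genes tested had them. Without F replicate 1, 5 of the 10 were called in FSB minus F, 1 higher (HAPLN1) and 4 lower. CILP was added there to PRG4, SCX and MATN3. In that fit 4825 of 13131 genes tested were called, 3275 higher and 1550 lower.

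Because FPKM is scaled by transcript length, the 10 levels can be set beside each other within a library. In F_FSB they summed to 148, 179 and 51.8 FPKM, of which HAPLN1 made up 91.4%, 50.7% and 53.6% and PRG4 0.514%, 33.2% and 29.5%. In FSB they summed to 68.9, 69.8 and 105 FPKM, of which HAPLN1 made up 88.7%, 86.2% and 93.7%. In F they summed to 148, 181 and 211 FPKM, of which HAPLN1 made up 69.8%, 2.41% and 2.83% and PRG4 21.9%, 90.3% and 76.1%. HAPLN1 was thus the leading gene of the 10 in all F_FSB and FSB cultures and in F replicate 1, and PRG4 was the leading gene in F replicates 2 and 3. The order of the group means in F was PRG4, HAPLN1, SCX, TNMD, MATN3, MIA and CILP, with the other 3 lower still. Since HAPLN1 ranged from 4.36 to 103 FPKM in that group, it overlapped PRG4 above it and genes below it, SCX, TNMD and MATN3 among them. TNMD was above MATN3 in F replicate 3 alone, at 9.99 against 2.33 FPKM, and below it in F replicates 1 and 2. The place of MIA rests on F replicate 3 alone, with 0 and 0.111 FPKM in the other F cultures, both below CILP in F replicates 2 and 3.

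**Figure D3:**
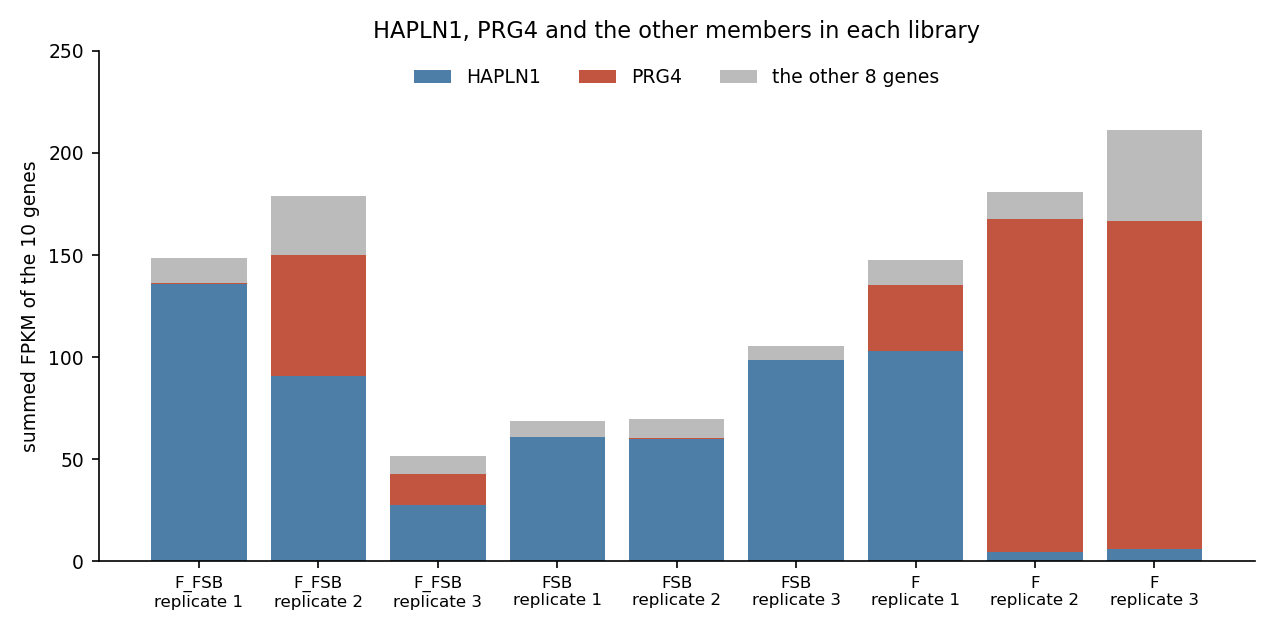
Summed FPKM of the 10 genes in each culture, as stacked bars from 0 divided into HAPLN1, PRG4 and the other genes, with F_FSB, FSB and F in order. HAPLN1 fills most of each FSB bar (86.2% to 93.7%), and PRG4 fills most of F replicates 2 and 3 (90.3% and 76.1%).

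The cultures in F differed in these genes more than in the median gene, and those in FSB did so for some of them. Across the F cultures the SD of log2(FPKM + 1) was 2.37 for HAPLN1, 1.64 for TNMD, 1.32 for PRG4, 1.01 for CILP, 0.98 for SCX and 0.50 for MATN3, against a median of 0.15 over all genes tested. These SDs stood at percentiles 99.7, 99.2, 98.7, 97.4, 97.2 and 90.5 of all genes tested. Among the F_FSB cultures the SD was 2.58 for PRG4, 1.71 for TNMD and 1.17 for HAPLN1, against a median of 0.17. Among the FSB cultures the SD was 0.40 for HAPLN1, 0.26 for TNMD and 0.24 for MATN3, above the median of 0.12. It was 0.09 for SCX, 0.02 for PRG4 and 0.000462 for CILP, below that median. SCX, PRG4 and CILP were at low levels in FSB, where log2(FPKM + 1) shrinks differences, so their small SDs do not show close agreement. PRG4 ranged there from 0.0104 to 0.0423 FPKM, a 4.08-fold range.

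By the root mean square difference of centred log2(FPKM + 1) over the 9 libraries, the genes nearest to PRG4 were DLK1 (0.71), COL6A3 (0.80) and ISLR (1.00), where the median gene lay at 3.06. DLK1, a Notch-family membrane protein of progenitor cells, was at 3.48, 40.6 and 18.5 FPKM in F_FSB, 0.793, 1.03 and 0.438 FPKM in FSB, and 21.1, 235 and 471 FPKM in F. COL6A3, a chain of the microfibrillar collagen VI, was at 35.7, 464 and 247 FPKM in F_FSB, 14.0, 10.8 and 8.93 FPKM in FSB, and 110, 799 and 1075 FPKM in F. Both shared with PRG4 a low F_FSB replicate 1 and a low F replicate 1 within their groups. The genes nearest to SCX were OPCML (0.28), NFIA (0.33) and EPHA7 (0.36), where the median gene lay at 1.37, and all 3 were highest in F replicate 3. OPCML, a cell adhesion molecule, was at 2.57, 3.59 and 1.19 FPKM in F_FSB, 0.0866, 0.0596 and 0.0649 FPKM in FSB, and 4.66, 5.81 and 14.8 FPKM in F. The genes nearest to MATN3 were MAN2A1 (0.14), SGIP1 (0.15) and CECR1 (0.17), where the median gene lay at 0.80. SGIP1, an endocytic adaptor, was at 9.02, 4.11 and 6.38 FPKM in F_FSB, 1.64, 1.60 and 1.53 FPKM in FSB, and 6.77, 4.24 and 2.72 FPKM in F. Each of these genes was picked for its likeness over the same libraries, so its differences between media are a description.

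Promoters from the RefSeq table (GRCh38.p14, windows of 300 bases around a gene's start) were matched for 9 of the 10 genes; that of SCX was not used here. The promoters of PRG4 and MATN3 are shown because these genes were called in both comparisons with FSB, and that of TNMD because it was called in none. Capitals mark CAGAC, a motif bound by SMAD proteins, read on either strand, so that GTCTG is the same motif on the other strand. The windows are chr1:186296023-186296322 on the plus strand for PRG4, chr2:20012619-20012918 on the minus strand for MATN3 and chrX:100584686-100584985 on the plus strand for TNMD.
PRG4: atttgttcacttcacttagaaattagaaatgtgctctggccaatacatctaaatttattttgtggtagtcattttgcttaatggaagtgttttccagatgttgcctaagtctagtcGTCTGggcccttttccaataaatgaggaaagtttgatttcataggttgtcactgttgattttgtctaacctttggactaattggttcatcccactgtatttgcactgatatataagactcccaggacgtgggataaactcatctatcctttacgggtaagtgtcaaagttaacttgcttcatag
MATN3: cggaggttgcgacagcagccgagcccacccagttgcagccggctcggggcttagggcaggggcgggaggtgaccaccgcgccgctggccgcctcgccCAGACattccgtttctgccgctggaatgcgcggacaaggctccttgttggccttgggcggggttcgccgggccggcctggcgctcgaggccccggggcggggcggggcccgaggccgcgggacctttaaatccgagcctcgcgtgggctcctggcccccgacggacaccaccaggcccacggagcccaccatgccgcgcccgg
TNMD: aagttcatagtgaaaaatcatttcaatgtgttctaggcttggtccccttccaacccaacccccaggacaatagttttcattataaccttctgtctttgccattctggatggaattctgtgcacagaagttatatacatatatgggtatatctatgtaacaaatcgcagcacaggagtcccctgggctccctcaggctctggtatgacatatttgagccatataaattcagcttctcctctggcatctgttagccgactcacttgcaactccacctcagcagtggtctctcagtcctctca
PRG4 and MATN3 each held 1 CAGAC in the window and TNMD held 0. ACAN, COMP, EPYC and MIA (first window), which did not reach the filter for testing, also held 1 each. HAPLN1 and CILP, which were tested and not called with all 9 libraries, held 0, as TNMD did. Whether the motif bears on the calls was not tested. Over the 9 genes, CAGAC was found in 6, where 45.3% of the table's 35116 promoters held it. CANNTG, the E-box to which scleraxis and other basic helix-loop-helix factors bind, was found in 6 of the 9, where 68.7% of all promoters held it. TGANTCA, the AP-1 motif, was found in 0 of the 9, where 7.71% of all promoters held it. ACAAAG or ACAATG, letters bound by SOX factors, were found in 3 of the 9, where 24.5% of all promoters held either. All motifs were searched on both strands, a base can belong to a match of more than 1 motif, and a match is a description of the window.

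Other genes of cartilage, tendon and joint were read from 10 lists by role, which hold 109 tested genes. FMOD, THBS4 and LECT1 each stand in more than 1 list, so the counts by list are not of separate genes. Of these, 18 rose and 40 fell in FSB minus F (limma, adjusted over all genes tested), where 28.5% of all genes tested were higher and 13.4% lower. In F_FSB minus FSB, 38 rose and 17 fell, where 13.7% of all genes tested were higher and 28.2% lower. In F_FSB minus F, 0 were called, where 1 of all genes tested passed. Without F replicate 1, 1 of the list genes was called in F_FSB minus F, and 74 of all genes tested. COL2A1, the gene of the main cartilage collagen, averaged 2.18 ± 2.42 FPKM in F_FSB, 50.3 ± 4.63 FPKM in FSB and 1.45 ± 0.54 FPKM in F, and rose by 4.41 in FSB relative to F (adjusted p = 0.000402, limma). COL9A3 and COL9A2, chains of the collagen IX that decorates its fibrils, fell by 3.34 (adjusted p = 0.0231) and 2.59 (adjusted p = 0.0277), and both calls were lost without FSB replicate 1, 2 or 3. COL9A1, a further collagen IX chain that did not reach the filter, was at 0.0730, 0.105 and 0.0320 FPKM in F_FSB, 1.42, 1.05 and 0.590 FPKM in FSB, and 0.0191, 0.0168 and 0.194 FPKM in F, so it was, like COL2A1, highest in the FSB cultures. COL2A1, COL9A3 and COL9A2 were the calls among 5 tested cartilage collagens, whose median change was -1.69 against 0.14 over all genes. In F_FSB minus FSB, COL2A1 alone of the 5 passed, lower by 4.28 (adjusted p = 0.000456); without F replicate 2 or F_FSB replicate 1 there were 1 higher and 1 lower. The 8 chondrocyte markers, ACAN and SOX9 among them, summed to 16.5 to 62.3 FPKM in F_FSB, 71.9 to 103 FPKM in FSB and 28.6 to 133 FPKM in F, with ACAN and MATN1 under 1 FPKM in every library. Most of the FSB sum came from COL2A1 and SOX9, which averaged 50.3 and 34.15 FPKM there. COL9A2 and COL9A3 averaged 1.19 and 0.138 FPKM in FSB, against 19.7 and 13.2 FPKM in F.

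SOX9, the master regulator of chondrocytes, was at 10.6, 22.7 and 25.1 FPKM in F_FSB, 43.7, 36.5 and 22.2 FPKM in FSB, and 15.9, 23.2 and 58.3 FPKM in F, and did not pass in any comparison. Of 10 tested transcription factors of its lineage, 2 rose in FSB relative to F, MEF2C by 3.16 and SOX8 by 2.46, and TRPS1 fell by 2.65; without F replicate 1 the counts were 4 and 1. Of 6 tested further cartilage matrix genes, 3 fell and 0 rose in FSB: the cartilage cytokine-like gene CYTL1 by 2.39 (adjusted p = 0.00370, limma), the calcification inhibitor MGP by 5.23 (adjusted p = 0.0241) and the collagen-binding proteoglycan FMOD by 3.95 (adjusted p = 0.0286); without FSB replicate 1, 2 or 3, 1 of the 6 was called. MGP was at 9.04, 188 and 11.6 FPKM in F_FSB, 0.0368, 0 and 0.0391 FPKM in FSB, and 5.77, 24.8 and 325 FPKM in F, so its highest cultures were, as for TNMD, F_FSB replicate 2 and F replicate 3. Of 10 tested paralogs of the 10 genes, 3 fell in FSB relative to F, or 5 without F replicate 1. THBS2 and THBS3, thrombospondins related to COMP, fell by 4.00 (adjusted p = 0.00387) and 0.76 (adjusted p = 0.0153), and MIA3, a relative of MIA that loads collagen for export, fell by 0.31 (adjusted p = 0.0254). In F_FSB minus FSB 1 transcription factor rose and 2 fell, 2 matrix genes rose and 1 fell, and 4 paralogs rose and 1 fell, or 5 and 0 after median ratio scaling. There the matrix genes gave 1 higher and 0 lower without FSB replicate 1 or 2 or F_FSB replicate 2, and the paralogs gave 2 higher and 0 lower without FSB replicate 1, 2 or 3, and 3 and 0 without F_FSB replicate 2 or 3.

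Of 22 tested genes for the glycosaminoglycan chains that aggrecan and versican carry, 2 rose and 9 fell in FSB minus F, or 1 and 11 after median ratio scaling, with a list median of -0.26. The counts were 0 and 4 without FSB replicate 1, 1 and 5 without FSB replicate 2, 0 and 7 without F replicate 3, and 1 and 5 with equal FPKM sums. Among them were CHPF2, a chondroitin polymerizing factor (fell by 0.76, adjusted p = 0.000576, limma), B4GALT7, an enzyme of the linker (fell by 0.65, adjusted p = 0.000852), and CSGALNACT1 and CSGALNACT2, which start chondroitin chains (fell by 1.95, adjusted p = 0.00257, and by 0.68, adjusted p = 0.00511). Of 7 tested genes for hyaluronan, to which HAPLN1 binds, 1 rose and 4 fell in FSB minus F, or 1 and 2 without FSB replicate 2. HAS2, a hyaluronan synthase, fell by 1.75 (adjusted p = 0.00545), CD44, the hyaluronan receptor, fell by 3.10 (adjusted p = 0.00934), and HMMR, a hyaluronan-binding spindle protein, rose by 1.04 (adjusted p = 0.00475). In F_FSB minus FSB 8 chain genes rose and 2 fell, or 12 and 1 after median ratio scaling and 5 and 1 without FSB replicate 1 or with equal FPKM sums, and 2 hyaluronan genes rose and 1 fell, or 4 and 1. Of 12 tested proteases of cartilage matrix and their inhibitors, 5 rose and 3 fell in FSB minus F, or 4 and 4 after median ratio scaling, and 5 rose and 3 fell in F_FSB minus FSB. HTRA1, a secreted serine protease, fell by 5.27 in FSB relative to F (adjusted p = 9.89e-05), and TIMP2, a metalloprotease inhibitor, fell by 1.36 (adjusted p = 0.000791). ADAMTS12, a metalloprotease that cuts COMP, rose by 1.88 (adjusted p = 0.000251), and ADAMTS1, which can cut aggrecan, rose by 1.26 (adjusted p = 0.00297).

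Beside SCX and TNMD, 9 other tendon genes were tested. Among them were FMOD, whose fall in FSB minus F is also counted above with the cartilage matrix genes, and THBS4, also counted with the paralogs. In FSB minus F 5 fell and 0 rose, with a list median of -2.04, and in F_FSB minus FSB 5 rose and 0 fell, with a list median of 1.92 against -0.13 over all genes. Without F replicate 3 or FSB replicate 1, 2 or 3, 3 fell in FSB minus F, and without F_FSB replicate 3, 3 rose in F_FSB minus FSB. DCN, or decorin, a collagen-binding proteoglycan, was at 54.2, 134 and 98.5 FPKM in F_FSB, 2.84, 2.93 and 1.32 FPKM in FSB, and 79.5, 253 and 176 FPKM in F, and fell by 5.55 in FSB relative to F (adjusted p = 0.000178, limma). COL14A1, a fibril-associated collagen of tendon, fell by 3.01 (adjusted p = 0.00628) and BGN, or biglycan, by 0.93 (adjusted p = 0.0186), while MKX, a further tendon transcription factor gene, stayed under 1 FPKM in every library. The 5 tenocyte markers, SCX and TNMD among them, summed to 6.42 to 75.9 FPKM in F_FSB, 6.45 to 8.53 FPKM in FSB and 9.59 to 96.9 FPKM in F. Most of the FSB sum was TNMD, at 5.22 to 7.74 FPKM, while SCX, MKX, THBS4 and FMOD were each under 1 FPKM there. The highest F_FSB sum was that of replicate 2, with FMOD at 39.3, TNMD at 17.3 and THBS4 at 12.8 FPKM. Other fibroblasts also make several of these proteins. The 5 mesenchymal stromal markers summed to 413 to 543 FPKM in F_FSB, 214 to 283 FPKM in FSB and 429 to 538 FPKM in F. In FSB minus F 3 of the 5 were called lower and 0 higher. THY1 averaged 27.4, 29.3 and 24.6 FPKM in F_FSB, FSB and F, and PDGFRB 94.1, 91.1 and 82.5 FPKM. The part of such fibroblasts in the tendon gene result was not tested.

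Beside PRG4, 11 tested genes of the joint interzone and synovial lining gave 2 higher and 4 lower in FSB minus F, and 4 higher and 2 lower in F_FSB minus FSB, or 2 and 1 without FSB replicate 2 or F_FSB replicate 2. CDH11, the cadherin of synovial lining fibroblasts, fell by 2.38 in FSB relative to F (adjusted p = 0.000377, limma), OSR1, a transcription factor of the joint in development, fell by 3.70 (adjusted p = 0.00341), and HBEGF, an EGF receptor ligand, rose by 3.25 (adjusted p = 0.000635). Of the 5 synovial lining markers, PRG4 included, HAS1 and CLIC5 stayed under 1 FPKM in every library. Their sum, most of it PRG4 in F, was 4.15 to 61.7 FPKM in F_FSB, 0.792 to 2.16 FPKM in FSB and 37.6 to 169 FPKM in F. Of 20 tested genes of TGF-beta ligands, receptors and the SMAD2 and SMAD3 arm, 5 rose and 7 fell in FSB minus F, or 2 and 7 after median ratio scaling, and 7 rose and 5 fell in F_FSB minus FSB. LTBP2, a latent TGF-beta binding protein, fell by 5.29 (adjusted p = 3.13e-05), INHBA, which encodes a chain of activin A, by 3.91 (adjusted p = 0.000423) and TGFB3 by 2.68 (adjusted p = 0.00112), and ACVR2B, an activin receptor, rose by 2.19 (adjusted p = 5.82e-05).

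**Figure D4:**
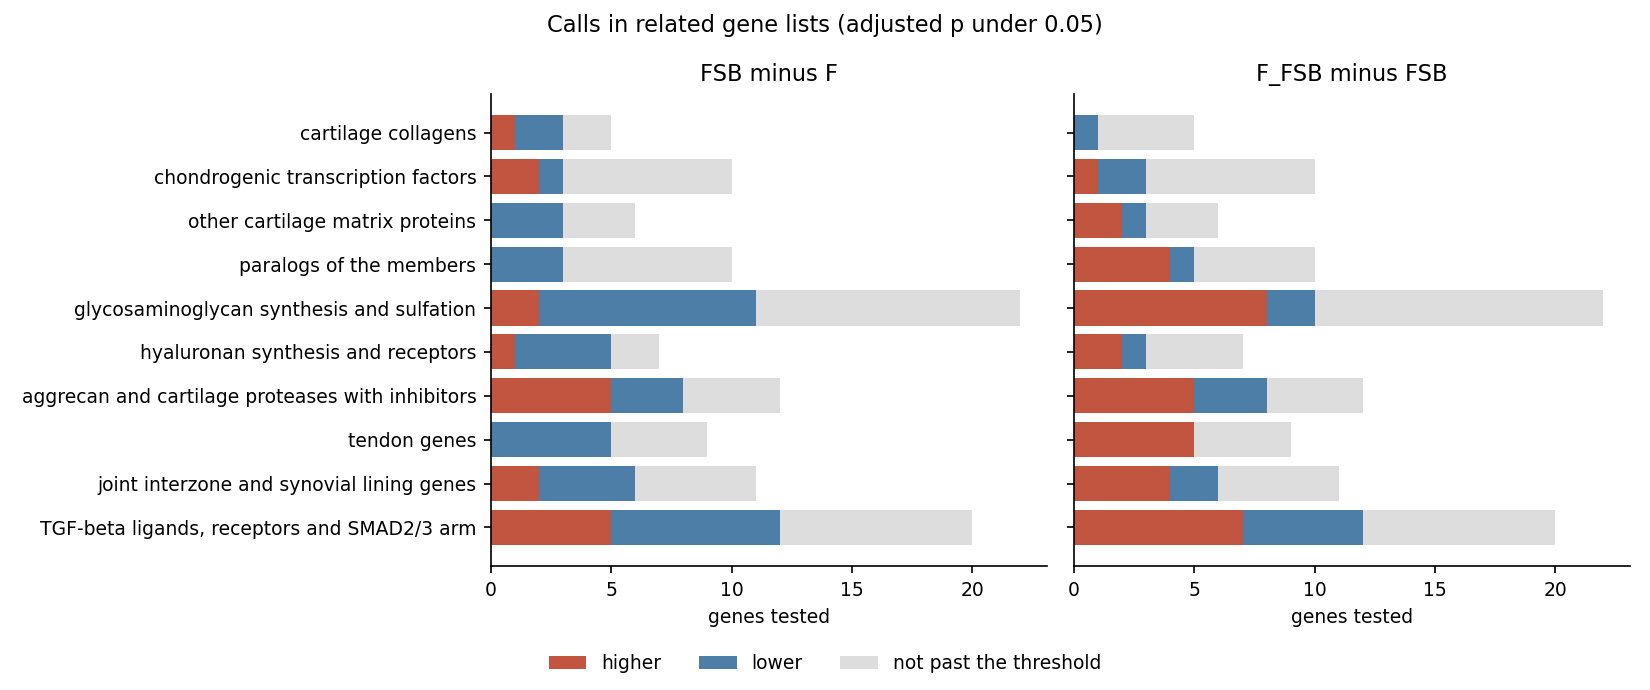
Number of tested genes that were higher, lower or not called (limma, adjusted p under 0.05) in each list, for FSB minus F and F_FSB minus FSB, as bars from 0. The tendon list has 5 lower of 9 in FSB minus F and 5 higher of 9 in F_FSB minus FSB, while the protease list holds calls on both sides in each comparison.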

How the data were processed

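RNA was sequenced from 9 cultures, 3 in each of the groups F_FSB, FSB and F, whose titles name them as separate cultures. The authors deposited per-gene FPKM values with 95% intervals, made with TopHat2 2.0.12 and Cufflinks 2.1.1 on GRCh37, per the submitters' processing notes; the sources used here do not state how strand was used. Of 25593 rows, 95 that lacked the status OK in at least 1 library were left out of the tests. From the FPKM values, log2(FPKM + 1) was modelled by group, without covariates, using limma 3.58.1 (R 4.3.3). A single fit took in all 9 libraries and allowed the variance to follow mean expression, so that the groups share an estimate of the spread. Genes with at least 1 FPKM in at least 3 libraries (13216) were tested, with Benjamini-Hochberg adjustment over all of them and a threshold of 0.05. The procedure was tested on simulated data. FPKM holds no read counts, so no count model was used and depth is known only through the deposited intervals.

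The members and the gene lists were chosen with earlier results of these data known. From each list, the 2 to 4 tested genes with the smallest adjusted p in FSB minus F are named, as are NGFR, NT5E and SOX9; further genes named in the text were chosen after their values were seen. Genes of like profile were ranked by the root mean square difference of centred log2 values among tested genes. Promoter sequences came from RefSeq (GRCh38.p14), and coordinates of genes are those of the deposited tables (GRCh37). Alternatives covered the pseudocount, the filter, scaling, the trend, the libraries fitted, a replicate block and leaving out each library.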

Additional observations from a re-analysis of the deposited data

How the results depend on the processing

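Over the 6 tested genes and all alternatives, 306 log2 changes kept their direction and their side of the threshold, 10 lost a call, 5 gained one and 6 changed sign. All 10 lost calls were those of PRG4 in F_FSB minus FSB; besides the fits without a library given above, they came with no filter on low values (adjusted p = 0.0705, limma), with only the groups compared (0.0570) and with FSB replicates 1 and 2 averaged as 1 library (0.0985), an alternative chosen after seeing the data. CILP was called in FSB minus F with a pseudocount of 0.1 (adjusted p = 0.0333), with equal FPKM sums (0.0491), with the replicate block (0.0410) and without F replicate 1. It missed the filter, and so had no test, without F_FSB replicate 2 or F replicate 2 or 3. The sign changes were all of changes far from the threshold: HAPLN1 in F_FSB minus FSB was 0.13 with median ratio scaling, 0.0635 with quantile normalization, 0.21 without FSB replicate 3 and 0.63 without F_FSB replicate 3, within a range of -0.50 to 0.63 when each replicate was left out; TNMD in F_FSB minus F was -0.32 without F replicate 1 and -0.51 without F_FSB replicate 2, within a range of -0.51 to 1.32. The cause was not tested.

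Leaving out each replicate in turn gave 3629 to 5780 called genes in FSB minus F (lowest without FSB replicate 2), 3817 to 5424 in F_FSB minus FSB and 0 to 74 in F_FSB minus F (74 without F replicate 1). Among the 10 genes it gave 3 to 5, 2 to 3 and 0 calls in those comparisons, and among the pathway lists 39 to 61, 42 to 58 and 0 to 1. In F_FSB minus F the single called gene was lost with no filter on low values, with the replicate block and with FSB replicates 1 and 2 as 1 library, leaving 0 in each. Whether same-numbered cultures share an origin cannot be decided from 3 libraries a group. The correlations of their deviations ran from -0.14 to 0.29, the highest being F_FSB replicate 1 with F replicate 1. Not every culture correlated best with its own number. With the replicate block, 4842 genes were called in FSB minus F, 4983 in F_FSB minus FSB and 0 in F_FSB minus F, and 4, 3 and 0 of the 10 genes. Of the related lists in FSB minus F, averaging FSB replicates 1 and 2 left 1 called collagen, 1 further matrix gene, 5 chain genes, 3 hyaluronan genes and 3 tendon genes. With no filter on low values 3 tendon genes were called in each comparison with FSB. Depth limits what can be said where the deposited intervals reach 0. That holds for COMP, for EPYC outside F replicate 3, and for PRG4 and CILP in FSB. It holds also for SCX in FSB replicates 2 and 3 and for TNMD in F replicate 1. ACAN is so limited in F_FSB replicates 1 and 3, FSB replicate 1 and F replicate 1. MIA is so limited outside FSB replicate 1 and F replicate 3. Absence is not shown by such intervals.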
